A study of Mus musculus with 30 samples.

Results

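The regions described here are those called from chromatin immunoprecipitation with sequencing (ChIP-seq) with an antibody against Aiolos in mouse thymocytes: 184 regions in homo cells and 25 in WT cells, 209 of the 24749 regions in the 8 deposited lists. They are every line of the 2 thymocyte Aiolos lists, and no region was picked by its values. The homo cells were thymus cells of C57BL/6 mice with the Ikzf3m/m genotype, which carry the G158R substitution in Aiolos on both copies of Ikzf3. The WT cells were thymus cells of C57BL/6 mice with the Ikzf3+/+ genotype. The other lists used for comparison came from the antibody against Ikaros in the same cells and from both antibodies in cultured pre-B cells of the same genotypes. Each list came from 1 library, so no difference between genotypes was tested and none has a replicate check. The sources used here give neither the age or number of the mice nor the control and thresholds of each call. The read depth of the libraries is unknown, because the lists hold no read totals, and its part in the number of regions was not tested.

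Aiolos, the product of Ikzf3, and Ikaros, the product of Ikzf1, are related zinc finger transcription factors of lymphocytes. They bind DNA through a group of zinc fingers near one end of the protein and pair with each other through fingers near the other end, and their usual core motif contains GGGAA. Both join chromatin remodelling complexes such as NuRD, and both are made in developing T cells and B cells.

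The labelled cell type was checked on the Ikaros lists, since no region of either Aiolos list lay within 5000 bases of any of 14 thymocyte marker genes or 9 B lineage marker genes. The thymocyte Ikaros list had a region near 12 of the 14 thymocyte markers in homo cells, Cd4, Cd8a and Lck among them, and near 9 of 14 in WT cells. In pre-B cells the same list of markers had a region near 2 of 14 in each genotype. B lineage markers had an Ikaros region near 5 of 9 in homo thymocytes and 3 of 9 in WT thymocytes, and near 8 of 9 in homo pre-B cells and 5 of 9 in WT pre-B cells. Of all 49943 genes of the annotation, 16.9% lay within 5000 bases of a homo thymocyte Ikaros region, 6.67% of a WT thymocyte one, 13.7% of a homo pre-B one and 6.28% of a WT pre-B one. For the thymocyte Aiolos lists the shares were 0.268% in homo and 0.022% in WT, so their absence near these markers says little.

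Of the 184 homo regions, 15 (8.15%) overlapped the RefSeq promoter window of a gene, 300 bases from 250 before to 50 after the annotated start (GRCm38.p6, the assembly of the mm10 coordinates). No WT region did. Of the thymocyte Ikaros regions, 32.8% overlapped such a window in homo and 11.5% in WT. The stretches shared by region and window are printed for 7 of these genes, since promoter bases are the ones of the Aiolos regions that could be read here. They belong to Socs1, an inhibitor of cytokine signalling (chr16:10785487-10785568, minus strand), Mknk2, a kinase of a translation initiation factor (chr10:80676462-80676510, minus), Pcif1, a methyltransferase of the messenger RNA cap (chr2:164879855-164879907, plus), and Ezh2, the catalytic subunit of a Polycomb complex (chr6:47595031-47595238, minus). The others belong to Rsbn1l (chr5:20951784-20951964, minus), Hjurp, the chaperone of the centromeric histone (chr1:88277574-88277682, minus), and Tedc1, a centriole gene (chr12:113156171-113156238, plus). Each runs 5′ to 3′ on the strand of its gene, and capitals mark GGGAGC or its reverse complement GCTCCC.
Socs1: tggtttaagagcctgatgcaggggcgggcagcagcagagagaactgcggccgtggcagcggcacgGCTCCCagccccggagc
Mknk2: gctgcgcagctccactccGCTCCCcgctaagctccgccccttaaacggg
Pcif1: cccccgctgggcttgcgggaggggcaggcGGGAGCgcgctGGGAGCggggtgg
Ezh2: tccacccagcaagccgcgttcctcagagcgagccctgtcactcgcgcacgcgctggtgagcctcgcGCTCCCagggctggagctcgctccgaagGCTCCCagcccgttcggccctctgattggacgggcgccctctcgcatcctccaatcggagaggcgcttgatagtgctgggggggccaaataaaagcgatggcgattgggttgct
Rsbn1l: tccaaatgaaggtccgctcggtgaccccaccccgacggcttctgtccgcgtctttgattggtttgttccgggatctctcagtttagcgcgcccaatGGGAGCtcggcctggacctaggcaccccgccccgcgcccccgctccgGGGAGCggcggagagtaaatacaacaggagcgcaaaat
Hjurp: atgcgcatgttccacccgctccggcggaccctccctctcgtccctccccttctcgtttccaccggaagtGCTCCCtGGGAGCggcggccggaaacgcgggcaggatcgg
Tedc1: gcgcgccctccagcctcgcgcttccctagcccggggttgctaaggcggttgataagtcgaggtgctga
The stretch at Tedc1 holds neither word and is shown beside 6 that do. All the stretches with 2 matches, at Pcif1, Ezh2, Rsbn1l and Hjurp, are printed. Those at Rps19, Gm27011 and Shprh, which also lack the word, are not, so the printed set is richer in it than the 15. GGGAGC was the 6-letter word found in the most of the 15 stretches, and it was singled out after the sequences had been seen. A higher share or rate in these stretches than elsewhere therefore follows in part from that choice, and enrichment was not tested. On either strand it was in 11 of the 15 stretches (73.3%), which together spanned 1644 bases, at 9.12 matches per kb. Over all 32817 promoter windows the word was in 26.8%, at 1.13 matches per kb. In the promoter bases inside homo thymocyte Ikaros regions it had 2.88 matches per kb, and in those inside WT thymocyte Ikaros regions 2.15. The word was in 44.5% of these homo Ikaros stretches and 29.9% of the WT ones, with mean lengths of 218 and 196 bases. The word GGAGCG, which was in 10 of the 15 Aiolos stretches and in 18.3% of all windows, is not a separate observation. It shares the letters GGAGC with GGGAGC and came from the same ranking of words. The share of G and C was 66.5% in the Aiolos stretches, 65.4% in the homo Ikaros ones, 61.1% in the WT Ikaros ones and 53.8% over all windows. The core GGGAA, searched on both strands, had 3.04 matches per kb in the Aiolos stretches, 4.23 in the homo Ikaros ones, 5.32 in the WT Ikaros ones and 3.39 over all windows. It was in 4 of the 15 stretches (26.7%), which had a mean length of 110 bases, against 56.3% of the homo Ikaros stretches, with a mean of 218 bases, and 62.7% of all windows. Counted over whole windows instead of stretches, GGGAA was in 13 of the 17 windows that a homo Aiolos region touched (76.5%). On the same count it was in 69.1% of the windows that a homo thymocyte Ikaros region touched and 74.7% for WT. GGGAA and GGGAGC share the letters GGGA and cannot start at the same base.

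The homo list was the longer of the thymocyte Aiolos lists. It held 184 regions over 65013 bases, against 25 regions over 6594 bases in WT, a ratio of 7.36 in number and 9.86 in bases. The regions were short: the median width was 228 bases in homo (49 to 2357) and 193 bases in WT (49 to 1411). The shortest region was 49 bases in both lists, whereas it was between 177 and 212 bases in the other 6 lists. The authors' fold, which is how far the signal of a region exceeds the background of the peak caller, had a median of 6.28 in homo (2.07 to 15.7) and 2.53 in WT (1.85 to 10.6). A fold belongs to its own list, so folds of different lists are given side by side and not as a change.

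Part of both lists lay in one place. At the start of chromosome 9, a stretch known for satellite repeats, there were 7 of the 184 homo regions (3.80%) and 14 of the 25 WT regions (56.0%). They lay between 3004021 and 3035832 in homo and between 3000400 and 3035898 in WT. Their folds were low, 2.07 to 2.36 in homo and 1.85 to 2.55 in WT. The WT list had 2 more regions on the unplaced contig GL456390.1, with folds of 4.20 and 4.56, and the homo list had none on a contig. Outside these places the homo list held 177 regions and the WT list 9, a ratio of 19.7, and the median fold was 6.33 in each.

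**Figure D1:**
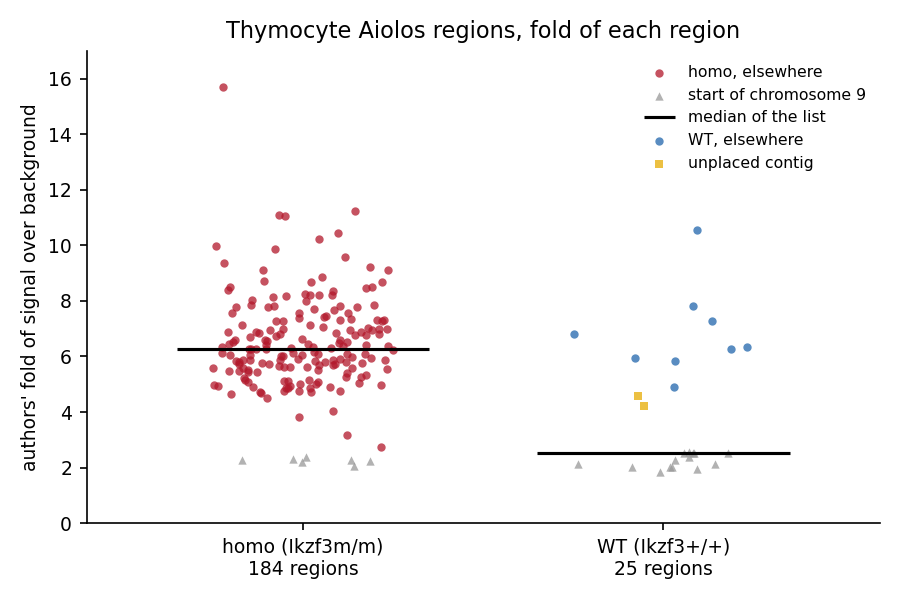
The authors' fold of each thymocyte Aiolos region (vertical axis, ratio of signal to background) in the homo list (left, 184 regions) and the WT list (right, 25 regions). Points are regions, spread sideways for legibility, and the black line is the median of the list: the triangles from the start of chromosome 9 lie below 3 in both lists and make up 14 of the 25 WT regions.

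Of the homo regions, 8 overlapped a region of the WT Aiolos list by at least 1 base, which is 4.35% of the homo list and, with 8 WT regions in turn, 32.0% of the WT list. For scale, 0.0973% of all homo thymocyte Ikaros regions overlapped the WT Aiolos list. Of the 8, 5 were at the start of chromosome 9. The other 3 were inside Tiam1, inside Ank1 and near Cox17. In Tiam1, which encodes an activator of the GTPase Rac, the shared region had a fold of 6.41 over 191 bases in homo, against 10.6 over 534 bases in WT (chr16:89905095-89905628). The homo list had another Tiam1 region at chr16:89939736-89940003, with a fold of 5.57, that the WT list lacked. Near Cox17, a copper chaperone gene of mitochondria, the fold was 6.07 in homo and 7.26 in WT. In Ank1, an ankyrin gene of red blood cells, the region began 2 bases apart in the lists, at 23095657 in homo and at 23095659 in WT on chromosome 8, and ended at 23095763 in both. Its fold was 4.86 in homo and 4.92 in WT, and no Ikaros list had a region there.

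The question of overlap with Ikaros was asked within each genotype. In homo cells, 173 of the 184 Aiolos regions (94.0%) overlapped a region of the homo thymocyte Ikaros list. In WT cells, 13 of the 25 (52.0%) overlapped the WT thymocyte Ikaros list. Without the start of chromosome 9 and the contigs the counts were 172 of 177 in homo and 7 of 9 in WT. The Ikaros lists differ in length, with 8221 regions in homo thymocytes and 3572 in WT thymocytes, and the reverse shares were small: 1.85% of the homo Ikaros regions overlapped a homo Aiolos region, and 0.336% of the WT Ikaros regions a WT Aiolos region.

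The homo Aiolos regions lay where both homo cell types had an Ikaros region and WT cells mostly had none. They overlapped the homo pre-B Ikaros list at 172 of 184 regions (93.5%), but the WT thymocyte Ikaros list at 19 (10.3%) and the WT pre-B Ikaros list at 6 (3.26%). As the background for these shares, 28.5% of all homo thymocyte Ikaros regions overlapped the homo pre-B Ikaros list, 34.1% the WT thymocyte Ikaros list and 13.7% the WT pre-B Ikaros list. In all, 154 of the 184 (83.7%) were in both homo Ikaros lists and in neither WT Ikaros list. Another 17 were in both homo Ikaros lists and in a WT one, 9 were in no Ikaros list and 4 had another pattern. The 9 in no Ikaros list were 5 at the start of chromosome 9, those in Ank1 (4.86) and Col23a1 (5.90), and regions with folds of 3.17 and 2.72 on chromosomes 4 and 12.

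**Figure D2:**
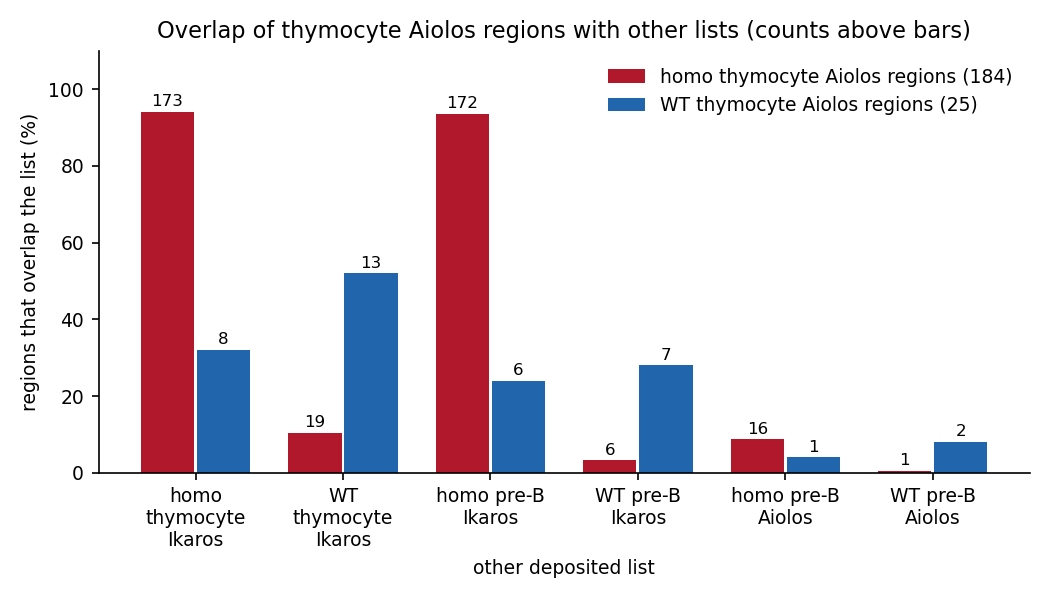
Share of the thymocyte Aiolos regions that overlap each of the other 6 deposited lists by at least 1 base (vertical axis, percent), for the 184 homo regions (left bar of each pair) and the 25 WT regions (right bar), with the count above each bar. The homo bars stand at 94.0% and 93.5% for the homo Ikaros lists and at 10.3% and 3.26% for the WT ones.

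The WT regions outside the start of chromosome 9 and the contigs were mostly in the Ikaros lists of both genotypes. Of all 25 WT regions, 12 (48%) were in no Ikaros list, 8 of them at the start of chromosome 9. Of the 9 outside chromosome 9 and the contigs, 7 were in the WT thymocyte Ikaros list, 7 in the homo thymocyte Ikaros list, 7 in the WT pre-B Ikaros list and 6 in the homo pre-B Ikaros list. Of all WT thymocyte Ikaros regions, 78.9% overlapped the homo thymocyte Ikaros list, 33.5% the WT pre-B one and 49% the homo pre-B one. After Tiam1 the largest fold was 7.80, near Lrp2bp, followed by the Cox17 region and Clasp1 (6.81), which encodes a microtubule-binding protein. Nr3c2, the mineralocorticoid receptor gene, had 6.26, Snx29, a sorting nexin gene, 5.94, and Stau2, a gene for an RNA-binding protein, 5.85. The Stau2 region was in no other list. The Ikaros region at Snx29 had a fold of 24.9 in homo and 37.9 in WT, where it was the largest of the WT list. At Nr3c2 the Ikaros fold was 12.3 in homo and 26.4 in WT, at Tiam1 17.4 and 26.2, and near Cox17 11.2 and 24.7. Of the 100 WT Ikaros regions with the largest fold, 4 held a WT Aiolos region.

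In homo thymocytes the Aiolos regions sat at Ikaros regions with large folds. The 152 homo Ikaros regions with an Aiolos region had a median Ikaros fold of 9.70, against 4.24 in the 8069 without one, and a median width of 802 bases against 395. Of the 152, 73.0% were in the top 10% of the list by fold, against 8.82% of those without. The share with an Aiolos region was 24.0% at ranks 1 to 100, 22.0% at ranks 101 to 200, 13.3% at ranks 201 to 500, 6.00% at ranks 501 to 1000, 2.60% at ranks 1001 to 2000 and 0.35% at ranks 2001 to 4000. Across the 173 overlapping Aiolos regions, Pearson's r between the log2 folds for Aiolos and Ikaros was 0.396 and Spearman's rho 0.295. Without the start of chromosome 9, 172 regions remained, with r at 0.320 and rho at 0.282. These are descriptions over regions that share libraries, and several Aiolos regions can share 1 Ikaros region.

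The split between homo and WT Ikaros lists was also there among Ikaros regions of like strength. Among the 1000 homo thymocyte Ikaros regions with the largest fold, 116 held an Aiolos region and 884 did not. All 116 overlapped the homo pre-B Ikaros list, against 73.1% of the 884. By contrast, 11.2% of the 116 overlapped the WT thymocyte Ikaros list, against 81.3% of the 884. At ranks 201 to 500, where the median Ikaros fold was 10.4 with and 10.2 without an Aiolos region, 2 of 40 and 224 of 260 overlapped the WT list. Read the other way, 209 of the 1000 were in the homo pre-B list and not in the WT thymocyte list, and 103 of these (49.3%) held an Aiolos region. Of the other 791, 13 did (1.64%). The median width among the 1000 was 915 bases with an Aiolos region and 690 without.

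**Figure D3:**
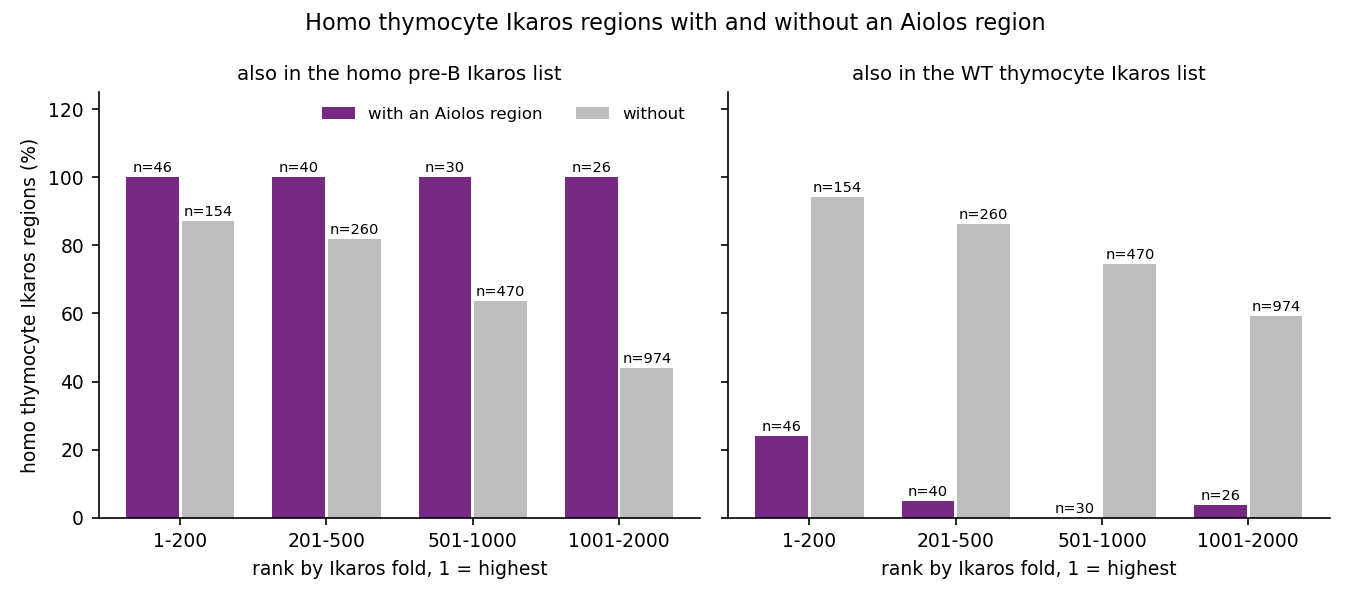
Homo thymocyte Ikaros regions with an Aiolos region (purple, left of each pair) and without one (grey), by rank of the Ikaros fold (horizontal axis, 1 is the highest), with n above each bar. The vertical axis is the percent also found in the homo pre-B Ikaros list (left panel) or the WT thymocyte Ikaros list (right panel): at ranks 501 to 1000 the purple bars are 100% and 0%, and the grey bars 63.6% and 74.5%.

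The strongest homo Aiolos signal was a run of 8 homo regions over 6754 bases at chr17:7906808-7913561. The run lies inside the long noncoding RNA gene Gm1604a, 12439 bases from Tagap, which encodes a GTPase-activating protein of activated T cells. The 8 folds were 5.78, 8.87, 9.13, 6.78, 11.2, 15.7, 11.1 and 8.40 from left to right, and 15.7 was the largest of the homo list. The homo thymocyte Ikaros list had 1 region of 7727 bases over the whole run, with a fold of 18.9, and the WT thymocyte Ikaros list had 3 shorter ones with folds of 3.53, 7.80 and 3.21. In pre-B cells the homo lists had 1 Aiolos region (4.30) and 1 Ikaros region of 6976 bases (14.5), and the WT lists had an Ikaros region of 470 bases (3.60) and no Aiolos region. The WT thymocyte Aiolos list had no region there.

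**Figure D4:**
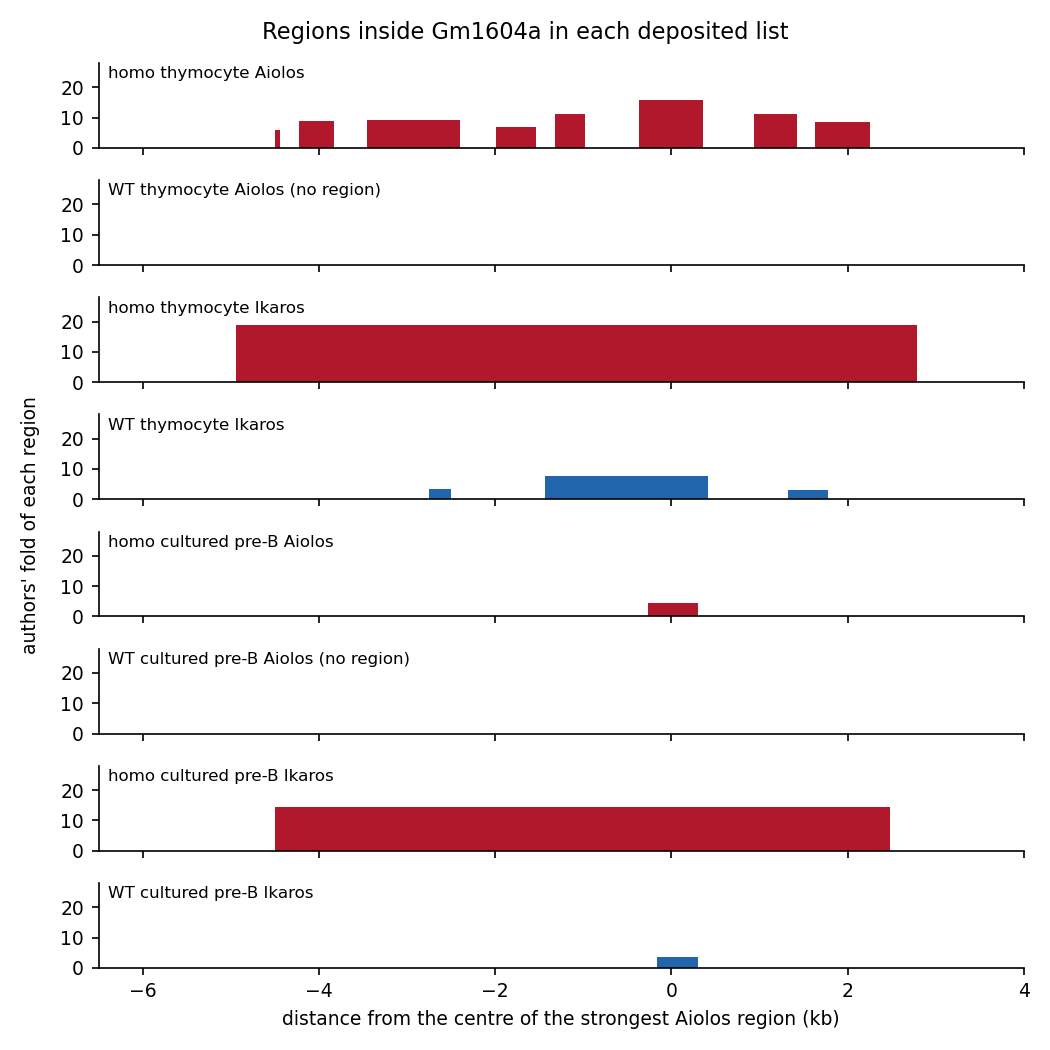
Regions of the 8 deposited lists along the run inside Gm1604a (horizontal axis, kb from the centre of the strongest homo Aiolos region), homo in red and WT in blue, with each bar as wide as its region and as high as the authors' fold in its own list. The homo thymocyte Aiolos panel has 8 bars up to 15.7 and the WT thymocyte Aiolos panel has none.

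Elsewhere the homo regions were mostly single. Over the whole lists, regions under 10000 bases apart formed 16 runs that held 42 of the 184 homo regions, and 2 runs that held 16 of the 25 WT regions. The 16 homo runs include the Gm1604a run of 8 regions, and runs of 4 and 3 regions at the start of chromosome 9. Fyb, which encodes an adaptor of T cell receptor signalling, held 3 homo regions with folds of 4.66 to 5.35. Tenm3, Epha3 and Epb41l1, known from nerve cells or cell adhesion, held 2 each. The number of homo regions on a chromosome was between 4 (chromosomes 11, 13 and 19) and 16 (chromosomes 3 and 9), and 7 of the 16 on chromosome 9 were those at its start.

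The 25 homo regions with the largest fold ranged from 8.21 to 15.7, and 6 of them belonged to the Gm1604a run. All 25 were in the homo thymocyte and the homo pre-B Ikaros lists, 9 were in the WT thymocyte Ikaros list and 1 in the WT pre-B Ikaros list. Of the other 159 homo regions, 148, 147, 10 and 5 were in these lists, in the same order. Pieces of the Gm1604a run are among the 9, and the 1 is the strongest region of that run. Next to the run came a region of 2056 bases in the noncoding gene Gm41359, 5876 bases from Csnk1e, the casein kinase 1 epsilon gene (chr15:79461455-79463510, fold 11.1). It lay at the homo thymocyte Ikaros region with the largest fold, 29.4, and the WT Ikaros region there had a fold of 3.30. Regions inside genes included Vps13d (9.85), a lipid transfer gene, Cdk18 (9.59), a cyclin-dependent kinase gene, Ddo (8.72), which encodes an oxidase of D-aspartate, Col6a6 (8.47), a collagen gene, Cacna1b (8.22), a calcium channel gene of neurons, and Tenm3 (8.21). None of these 6 is a gene of the T cell receptor or of a thymocyte marker. Of all 49943 genes, 0.268% lay within 5000 bases of a homo Aiolos region, so the absence of a few genes says little.

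Of the 25, 7 (28%) lay over 30000 bases from any coding gene, as did 49 of the other 159 homo regions (30.8%). The nearest genes of the 7 were Gm5424 (10.5), Rps2-ps3 (10.2, with Ahi1 the nearest coding gene), Gm5641 (9.98, Postn), LOC108167682 (9.38, Cpne4), Pvt1 (9.21), Gm23131 (8.68, Adgrl2) and Gm39631 (8.49, Tmem182). The Pvt1 region was 188088 bases from that noncoding gene and 457942 bases from Myc. The remaining regions of the 25 were in Gm51498 near Tnrc6a (9.13), near Vstm5 (8.66), near Tacc1 (8.48), 492 bases from Nmi (8.36), which encodes a partner of STAT proteins, and near Moxd2 (8.24).

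A smaller share of the homo Aiolos regions than of the homo Ikaros regions lay near genes, a difference given without a test. Of the 184, 30 (16.3%) lay within 1000 bases of either end of a gene, 94 (51.1%) lay inside a gene, and 47 (25.5%) lay over 50 kb from a coding gene. Of the homo thymocyte Ikaros regions on chromosomes, 48.1% lay within 1000 bases of a gene end, 76.9% inside a gene and 9.17% over 50 kb from a coding gene. Of the WT ones the shares were 28.3%, 66.8% and 14.0%. In the WT Aiolos list, 1 of the 23 regions on chromosomes lay that near a gene end, the Cox17 one. With the start of chromosome 9 left out, the 30 homo regions near a gene end had a median Aiolos fold of 5.47 and the 147 farther away one of 6.50. The Ikaros folds at the same places ran the other way, with medians of 12.8 and 9.35.

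Among the 30 were the promoters whose bases are printed above. The Aiolos fold was 7.06 at Socs1, 5.73 at Mknk2, 5.60 at Pcif1, 4.86 at Ezh2, 4.73 at Rsbn1l, 4.51 at Tedc1 and 3.82 at Hjurp. The others of the 15 were Rps19, a ribosomal protein gene (5.46), Ddx20 (5.27), Gm27011 (5.21), Gsk3b, a kinase gene of many signalling pathways (5.17), Atp2c1 (5.12), Prkci (5.10), Chaserr (4.96) and Shprh (4.93). All 15 regions were in the homo pre-B Ikaros list, and 3 of them, at Rps19, Ddx20 and Hjurp, were in the WT thymocyte Ikaros list. Of all 184 homo Aiolos regions, 93.5% were in the homo pre-B Ikaros list and 10.3% in the WT thymocyte one, so the 15 are not set apart by this. At Gm27011 the region reached the window by 4 bases only.

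None of the listed genes of thymocyte identity had an Aiolos region within 5000 bases. In 10 lists with 199 genes, from thymocyte identity, the Notch pathway and the Ikaros family to cell cycle, apoptosis and ribosomal genes, 1 gene lay within 5000 bases of a homo Aiolos region and none near a WT one. The background over all 49943 genes was 0.268% for homo and 0.022% for WT, so the lists were near it. The gene was Hspa8, a constitutive heat shock chaperone, with a region of fold 4.96 at 137 bases. A homo thymocyte Ikaros region lay near 117 of the 199 genes and a WT one near 59, and over all genes these shares were 16.9% and 6.67%. Of the 40 genes of thymocyte identity, 36 had a homo Ikaros region and 26 a WT one within that distance.

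In cultured pre-B cells the numbers of Aiolos regions ran the other way, with 24 in homo and 431 in WT, a ratio of 0.0557. The thymocyte and pre-B Aiolos lists of homo cells overlapped at 16 thymocyte regions, 8.70% of the homo thymocyte list, and 66.7% of the 24 pre-B regions overlapped in turn. For comparison, 0.255% of all homo thymocyte Ikaros regions overlapped the homo pre-B Aiolos list. These 16 had a median thymocyte fold of 7.80 and the other 168 one of 6.15. Without the start of chromosome 9, 15 shared regions had a median of 7.805 and 162 others one of 6.26. The 16 included the strongest region of the Gm1604a run (15.7 in thymocytes, 4.30 in pre-B cells), the region near Csnk1e (11.1 and 6.33), the one near Tnrc6a (9.13 and 4.29), Ddo (8.72 and 6.46) and Cacna1b (8.22 and 4.95). They also held a region at the start of chromosome 9 (2.25 and 1.74). The homo thymocyte Aiolos list shared 1 region with the WT pre-B Aiolos list, the Tiam1 one, and the WT thymocyte Aiolos list shared the Tiam1 and Snx29 ones with it. The shares of all thymocyte Ikaros regions in that list were 0.109% in homo and 0.616% in WT. With Ikaros the homo list was the longer in both cell types, 2.30 times in thymocytes and 2.34 times in pre-B cells.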

How the data were processed

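Thymocyte ChIP-seq regions from 1 library per antibody and genotype were analysed. Per the submitters' processing notes the build was mm10 and the tools were MACS2 2.1.1, HISAT2 2.1.0 and STAR 2.7.0. The step each tool did is not stated in them. The deposited lists are broad peaks. Columns deposited by the authors hold a score, a fold (ratio of signal over background) and, on the −log10 scale, p-values and q-values per region. The deposited score repeats the q-value and was not used further. Input libraries and RNA counts were not analysed here. Positions are counted from 1. Regions were compared with pandas 2.3.3, and an overlap was at least 1 base. The overlap code was tested on simulated regions. Genes and promoters came from RefSeq tables of GRCm38.p6. The gene table has no strand, so either gene end stands for the start. The promoter table is not complete and lacks chromosome 18, and no genome was at hand. The named regions were the WT regions (1 is not reported here), homo regions that overlap them, the 25 homo regions with the largest fold and homo regions within 5000 bases of a listed gene; the promoter regions, and those in Fyb, Epha3, Epb41l1 and Col23a1, were named after their values were seen. The regions and gene lists were chosen with earlier results of these data known. Alternatives were stricter q and fold limits, other overlap and distance limits, joined regions, and the lists without the start of chromosome 9 and the contigs.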

Additional observations from a re-analysis of the deposited data

Results flagged for a closer look

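The number of Aiolos regions, homo over WT, was 7.36 in thymocytes (184 against 25) and 0.0557 in cultured pre-B cells (24 against 431). The same contrast of genotypes went in opposite directions in the 2 cell types, with 1 library per genotype in each. The difference between the cell types was not tested.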

How the results depend on the processing

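Of 38 alternative values, 21 stayed within the limits set for counts and medians and 17 moved. Overlaps were judged by count and not by share, so a count can move because a stricter limit let fewer regions enter. Thus 71 of 72 homo regions in the homo Ikaros list (98.6%) counted as moved from 173 of 184 (94.0%). No paired analysis was possible because each genotype has 1 library and no result comes from a test, and no library could be left out. At a −log10 q of at least 5 the lists held 72 homo and 4 WT regions, of which 71 and 4 were in the thymocyte Ikaros list of their genotype, and 0 homo regions were shared with the whole WT list. At a fold of at least 5 there were 156 homo and 8 WT regions, and 2 homo regions were shared. Without the start of chromosome 9 and the contigs, a choice made after seeing the data, the WT list held 9 regions with a median fold of 6.33, of which 7 were in the WT Ikaros list, and 3 homo regions were shared. With the Ikaros lists held to a −log10 q of at least 5, 7 of the 25 WT regions overlapped. In the Ikaros list of the other genotype there were 19 homo and 8 WT regions. Within 5000 bases of a gene end there were 62 homo and 4 WT regions. The 25 homo regions with the largest fold had a median of 9.13. The homo list was the longer under each of the alternatives run for the number of regions. Depth is unknown, so a region missing from a list shows only that none was called.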
